A study of Mus musculus with 4 samples.

Results

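PDGFRα+ adipose progenitors given dexamethasone (DEX) were compared with cells of the same kind given PBS, with 1 RNA-seq library on each side. The comparison took in every gene of the authors' table for these cells, which lists 15009 of the 15906 genes found in any of the 3 tables of the series. Values are FPKM, fragments scaled by transcript length and by the mapped fragments of a library, so that levels are already per length. The cells came from adipose tissue of C57BL/6 mice, were sorted with magnetic beads for PDGFRα (also named CD140 in the labels) from depots abbreviated SAT or VAT, and were grown in culture. PBS and DEX cells alike then went through an adipogenic cocktail, and DEX was given at 1 µM to the differentiated cells. The other samples of the series, 2 of 4, are CD137+ progenitors with the same treatments. The labels give no genotype, age, sex or length of treatment, do not say which depot a sample came from, and do not say how many animals or cultures a library holds. The title of the series asks whether glucocorticoids turn PDGFRα+ progenitors into white adipocytes through methylation at Tead1.

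Glucocorticoids bind a receptor in the cytosol, encoded by Nr3c1, which then enters the nucleus and switches genes on or off. DEX is a synthetic agonist of that receptor and also a usual component of adipogenic cocktails. PDGFRα marks stromal cells of fat that lay down collagen matrix, secrete complement and acute-phase proteins, and can leave the cell cycle to become lipid-storing adipocytes. In bulk RNA a lower value can come from fewer cells of a type or from less RNA per cell, and these cannot be told apart here.

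The labels need care before any direction is read. A further column labelled PDGFRα+ DEX stands in the authors' table that compares the cell types, and it held other values: it was nearly the PBS library, with 7 genes past 2-fold above it and 14 below it among 12456 at 1 FPKM or more. Across 13376 genes listed in all 6 columns, which are not replicates, the column compared here was at least 2-fold from PBS at 2471 genes (Pearson r = 0.89) and from the other column of its own label at 2394. Its nearest column was the CD137+ DEX column of the between-type table, 2-fold away at 677 genes (r = 0.96). The sources used here do not say which of the columns with this label came from DEX cells. It is therefore called the library labelled DEX, results are also given with the other PDGFRα+ DEX column, and all differences take the direction of the label. With a library a side no replicate check exists and no test was made, so the sizes below describe these libraries. Sequencing depth is unknown, and its counting error cannot be given.

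Differences are those of log2(FPKM + 1), labelled DEX minus PBS, over the 13181 genes that reached 1 FPKM in the higher library. Their median of 0.25, the typical shift towards the library labelled DEX, was set to 0. On this scale 1217 genes (9.23%) passed 2-fold on the higher side and 1561 (11.8%) on the lower side, whereas 7423 (56.3%) lay within 1.5-fold. With the other PDGFRα+ DEX column 0.169% of genes passed 2-fold in either direction. The lower side had the longer tail: 117 genes were at least 8-fold lower against 32 higher, and 35 at least 16-fold lower against 6 higher. The pseudocount of 1 understates the differences of low genes. A typical shift of 0.25 matters for the split, since as deposited 2049 genes were 2-fold higher and 1016 lower. Counts of list members below stand against 9.23% higher and 11.8% lower. Those given as deposited stand against 2049 higher and 1016 lower of the 13181 genes. The medians of gene lists given below keep their sign as deposited and with the upper quartiles set equal, unless stated.

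**Figure D1:**
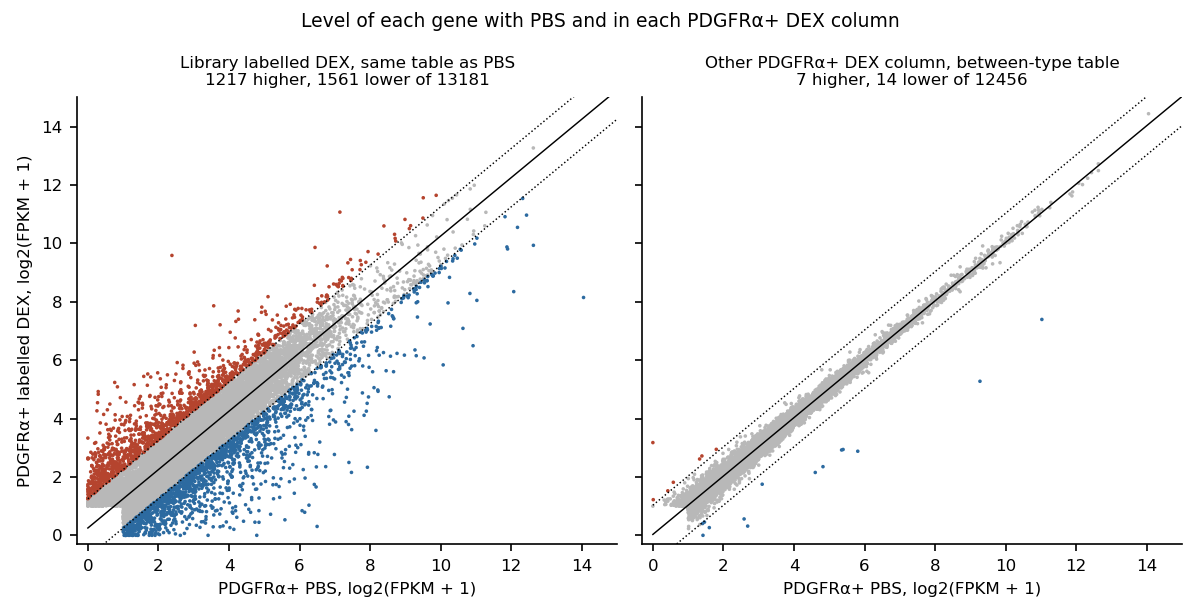
Each point is a gene, with its level in the PDGFRα+ PBS library on the x axis and in a PDGFRα+ DEX column on the y axis, both as log2(FPKM + 1). Dotted lines mark 2-fold around the typical gene. In the table of PDGFRα+ cells 1217 genes lie above and 1561 below them, while the other column has 7 above and 14 below.

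Of the 15 genes with the largest positive differences the first was Cck. It encodes the gut and brain peptide cholecystokinin. Cck (mm10 chromosome 9, 121489824 to 121495694) stood at 4.21 FPKM with PBS, 768 FPKM in the library labelled DEX and 2.30 FPKM in the other DEX column, a difference of 6.95 on the log2 scale. Spp1, which ranked 10th and encodes the matrix phosphoprotein osteopontin (chromosome 5, 104435118 to 104441050), stood at 140 FPKM with PBS, 2151 FPKM in the library labelled DEX and 149 FPKM in the other DEX column. For each gene the library labelled DEX was the high column, and the other DEX column was within 2-fold of PBS. Between Cck and Spp1 in rank stood the BMP antagonist Grem1 (0.225 and 29.4 FPKM, PBS first), the progesterone-converting aldo-keto reductase Akr1c18 (0.226 and 27.5), the oxidised LDL receptor Olr1 (0.695 and 36.7) and the tetraspanin-like surface protein Tm4sf1 (10.9 and 232). Akr1c18 belongs to a family of similar genes, and Prl2c2 (0.787 and 33.0 FPKM), a prolactin family gene, has near-identical copies, so these values are uncertain. A further block of the 15 highest genes is typical of epithelia: the tight junction claudins Cldn4 (7.26 and 145 FPKM) and Cldn7 (1.48 and 34.8), E-cadherin Cdh1 (2.24 and 45.1), the 14-3-3 protein stratifin Sfn (2.0 and 42.5), the membrane trafficking protein Mal2 (0.892 and 25.3) and the glycoprotein Olfm4 (0.541 and 21.6). The calgranulin S100a8, a protein abundant in neutrophils, stood at 0.209 and 22.3 FPKM, and the collagenase Mmp13 completed the set.

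Of the 15 genes with the largest negative differences the first was C7. C7, a component of the complement pore (chromosome 15, 4988762 to 5063773), stood at 89.4 FPKM with PBS, 0.235 FPKM in the library labelled DEX and 125 FPKM in the other DEX column, a difference of -6.44. Kng2, a kininogen, stood at 69.9 and 0.728 FPKM, and the calcitonin and CGRP gene Calca at 76.0 and 1.05. Scara5, a ferritin receptor that marks adipose and other fibroblasts, stood at 66.3 and 0.794 FPKM. Rarres2, the gene of the adipokine chemerin, stood at 286 and 11.1 FPKM. The remaining members of this set were the carbonic anhydrase Car3 (47.0 and 0.445 FPKM), the selenium-binding methanethiol oxidase Selenbp1 (87.6 and 2.15), the phosphodiesterase Gdpd2 (84.6 and 2.35), the lipid transporter Abca8a (35.3 and 0.649), G0s2, Saa3, A2m, Serpina3m and C3. Cxcl13, the chemokine that draws B cells, stood at 26.6 FPKM with PBS and was listed at 0 in the library labelled DEX, so no fold is given. In the other DEX column each of these 15 genes was within 2-fold of PBS.

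Genes that glucocorticoids induce in many tissues stood lower in the library labelled DEX. Of 35 measured members of that list, 22 were 2-fold lower and 0 higher (median -1.25), beside 11.8% lower over all genes, and 3 lay above 0. Tsc22d3, a direct receptor target, stood at 113 FPKM with PBS, 30.2 FPKM in the library labelled DEX and 122 FPKM in the other DEX column. Rgs2, which shuts off G protein signalling, stood at 24.9, 2.38 and 23.8 FPKM in the same order. The cell cycle inhibitor gene Cdkn1c stood at 29.4, 6.08 and 32.2 FPKM, and the clock gene Per2, nearest to the median of the list, at 3.69, 1.35 and 3.63 FPKM. Other targets fixed by name were the zinc finger factors Zbtb16 (24.2, 3.69 and 21.9 FPKM) and Klf15 (18.8, 1.61 and 18.6) and the receptor cochaperone Fkbp5 (64.7, 35.8 and 73.8). In each of these genes the PBS library and the other DEX column were close and the library labelled DEX was low. Against the other column 0 of 34 members passed 2-fold (median -0.01). These directions are opposite to the label. Genes of the receptor, its chaperones and cofactors had 3 of 25 higher and 3 lower, or 6 and 1 as deposited. The former counts are 12.0% each, near the 9.23% and 11.8% of all genes. Nr3c1 stood at 30.5 and 17.6 FPKM, and the chaperone genes Hsp90aa1 at 110 and 288 and Hspa4 at 29.8 and 91.5 FPKM. Of 20 clock genes 8 were 2-fold lower and 0 higher (median -0.78), or 5 and 2 as deposited, among them Per3 (8.93 and 1.00 FPKM) and the repressors Nfil3 (38.2 and 15.8) and Nr1d1 (12.6 and 5.27).

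Genes of mature adipocytes were lower as a group. Of 31 measured members 20 were 2-fold lower and 0 higher (median -1.71), and 29 lay below 0. Beyond Car3 the largest differences were those of the apolipoprotein Apoc1 (42.3 and 1.46 FPKM), the retinol carrier Rbp4 (37.4 and 1.38), and the hormone resistin, Retn (16.2 and 0.915). The adipsin gene Cfd stood at 9.61 FPKM with PBS and was listed at 0 in the library labelled DEX. Hormone-sensitive lipase, Lipe, nearest to the median, stood at 8.74 and 2.54 FPKM, and Adipoq, the adiponectin gene, at 14.7 and 1.44. In the other DEX column 0 of 31 passed 2-fold, with a median of 0.18. Adipogenic transcription factors split less clearly, with 8 of 30 lower and 3 higher (median -0.50). Those named by size were Cebpd (81.8 and 27.1 FPKM), which acts early in adipogenesis, Nfia (9.89 and 2.82), which opens adipocyte enhancers in brown fat, and the oxysterol receptor Nr1h3 (5.60 and 1.64), besides Pparg (7.68 and 2.29).

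Lipid pathways did not all follow the adipocyte genes. Of 34 fatty acid and triglyceride synthesis genes 7 were lower and 3 higher (6 and 4 as deposited), with a median of -0.11 that turned to 0.14 as deposited. Thrsp, a lipogenic nuclear protein, stood at 12.7 and 0.878 FPKM, the acyltransferases Dgat2 at 15.3 and 4.06 and Gpam at 27.8 and 7.99. The desaturase Scd2 stood at 266 and 298 FPKM. Among fatty acid oxidation genes Cpt1a, the gate of fatty acids into mitochondria, stood at 13.2 and 48.6 FPKM, whereas the receptor gene Ppara stood at 2.18 and 0.185. That list held 3 higher and 3 lower of 31 (9.68% each), near the 9.23% and 11.8% of all genes. Cholesterol synthesis and uptake genes lay on the opposite side from adipocyte genes. Of 30 members 10 were 2-fold higher and 0 lower (median 0.77), beside 9.23% higher over all genes. As deposited 16 were higher and 0 lower, beside 2049 of 13181 genes higher. Fdps stood at 28.1 and 95.2 FPKM, Hsd17b7 at 3.90 and 23.7, Msmo1 at 31.1 and 94.6 and Idi1 at 19.5 and 54.1, all enzymes of the same pathway. Liver X receptor targets and cholesterol export genes ran the other way, with 8 of 17 lower and 0 higher (median -0.81), or 6 and 1 as deposited. They include Apoe (633 and 70.1 FPKM), which carries lipid out of cells, the cholesterol pump Abca1 (63.5 and 18.8) and the sterol hydroxylase Cyp27a1 (7.21 and 1.55). With the other DEX column neither list had a member past 2-fold, and their medians were 0.07 and -0.07.

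The extracellular matrix programme differed in nearly every layer. Collagen chains form fibrils, the sheets of basement membranes and the beaded filaments of collagen VI. Of 29 measured collagen genes 17 were 2-fold lower and 0 higher (median -1.40), and together the collagen genes of the list took 4.04% of summed FPKM under PBS and 1.10% in the library labelled DEX. The fibrillar chain Col3a1 stood at 6337 FPKM with PBS, 977 FPKM in the library labelled DEX and 5760 FPKM in the other DEX column. Col1a2 stood at 3815, 896 and 3471 FPKM in the same order, so both fibrillar chains were low in the library labelled DEX alone of the PDGFRα+ columns. Summed over 9 fibrillar chains the level was 14853 FPKM in the PBS library and 3467 in that labelled DEX. The 4 measured collagen VI chains were all 2-fold lower (median -2.71), with Col6a2 at 219 and 28.4 FPKM, and the 6 collagen IV chains less so (median -0.95, with 2 past 2-fold). Enzymes that process collagen followed in part, 10 of 27 lower and 2 higher, or 7 and 3 as deposited. The procollagen peptidase Adamts2 stood at 163 and 31.1 FPKM, the prolyl hydroxylase P4ha2 at 290 and 79.1, the lysyl hydroxylase Plod1 at 168 and 46.4, and the collagen chaperone and matricellular protein Sparc at 5538 and 2001. Tll1, another protease of this list, was on the higher side at 0.550 and 9.51 FPKM.

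Small leucine-rich proteoglycans and dermatopontin coat and space collagen fibrils, and this list had the lowest median of any with 10 or more measured members, -2.47. All 12 measured members lay below 0 and 8 were 2-fold lower. Dpt stood at 106 FPKM with PBS, 4.11 FPKM in the library labelled DEX and 145 FPKM in the other DEX column. The fibril spacers Prelp (60.8 and 7.02 FPKM), Lum (116 and 18.3) and Ogn (68.4 and 12.3) behaved alike. Their median with the other column was 0.28, on the other side of PBS. Among 40 matricellular and elastic fibre genes 15 were lower and 7 higher (median -0.78). Elastin, Eln, stood at 186 and 18.1 FPKM, fibulin Fbln1 at 113 and 15.8, matrilin Matn2 at 44.8 and 5.84 and the latent TGFβ binding protein Ltbp4 at 19.1 and 3.46. Ctgf, a connective tissue growth factor and TEAD target, stood at 109 and 598 FPKM with Spp1 on the higher side.

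Basement membrane and adhesion genes exchanged members. Of 32 measured genes 9 were higher and 9 lower (median -0.31). The laminin chain Lama4, typical of mesenchyme and vessels, stood at 160 FPKM with PBS, 25.4 FPKM in the library labelled DEX and 141 FPKM in the other DEX column. The laminin chain Lama3, typical of epithelia, stood on the other side at 0.945 and 8.79 FPKM. Nidogen Nid2 (79.5 and 16.2 FPKM) and the collagen receptor Itga11 (36.0 and 5.27) were lower, and so was Itga7 (22 and 5.24), a laminin receptor. Over 17 integrin subunits 6 were higher and 3 lower. Among 46 genes of matrix proteases and their inhibitors 12 were higher and 10 lower, or 13 and 8 as deposited. Their median of -0.09 turned to 0.16 as deposited. Of 15 measured Mmp genes 7 were 2-fold higher and 1 lower, the exception being Mmp23 (81.7 and 14.3 FPKM). Of 11 Adamts genes 4 were lower and 0 higher, or 4 and 1 as deposited, led by the versican-cleaving Adamts15 (75.5 and 5.87). The Mmp and Adamts sets were chosen after values were seen, and the contrast between them was not tested. Urokinase, Plau, which activates plasmin, stood at 7.87 and 56.4 FPKM. With the other DEX column 0 of 29 basement membrane and 0 of 40 protease genes passed 2-fold.

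Secreted immune and plasma proteins gave some of the lowest values. Of 23 measured complement genes 15 were 2-fold lower and 2 higher (median -1.81). The set of classical pathway proteases and C3 was lower at 7 of 7 genes, summing to 2752 FPKM in the PBS library and 194 in that labelled DEX. C3, on which all complement pathways meet, stood at 1935 FPKM with PBS, 89.2 FPKM in the library labelled DEX and 2409 FPKM in the other DEX column, and the C1 inhibitor Serping1 at 1587, 135 and 1698. Both were low in the library labelled DEX alone of the PDGFRα+ columns. C1ra (177 and 11.3 FPKM), C1rb (36.9 and 2.32) and C4b (51.7 and 3.93) have near-identical copies, so their split between copies is uncertain. Of 22 acute-phase and plasma proteins 16 were lower and 1 higher (median -1.62), and the list took 6.03% of summed FPKM under PBS and 0.668% in the library labelled DEX. Haptoglobin, Hp, stood at 1076 and 56.2 FPKM, and the iron carrier transferrin, Trf, at 75.7 and 6.14. Serpina3n (4306 and 325 FPKM) and Serpina3m (177 and 3.45) are near-identical protease inhibitor genes, and their values are uncertain. Serpins as a family had 11 of 23 lower and 4 higher. With the other column 0 of 21 complement and 0 of 20 acute-phase genes passed 2-fold, and both medians were 0.18.

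Antigen presentation by MHC class I was lower without exception among the heavy chains. All 8 measured heavy chain genes lay below 0 and 6 were 2-fold lower. H2-K1 stood at 190 and 70.2 FPKM and H2-T23 at 56.2 and 13.4, and H2-Q7 (21.2 and 1.07) belongs to a group of near-identical genes and is uncertain. In the whole list, which holds peptide loading and immunoproteasome genes as well, 11 of 24 were lower and 0 higher (median -0.94). The inducible proteasome subunit Psmb9 stood at 3.15 and 0.477 FPKM and the transporter Tap2, nearest to the median, at 11.0 and 6.77. Interferon-responsive genes had 5 lower (11.4%) and 3 higher (6.82%) of 44, beside 11.8% and 9.23% of all genes (median -0.32). As deposited 1 was lower and 4 higher. The membrane protein Ifitm1 stood at 90.7 and 5.83 FPKM, against the GTPase Irgm1 at 8.06 and 27.6.

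Cytokines and their receptors stood on both sides. Of 38 genes 9 were higher and 12 lower (median -0.31), or 10 and 6 as deposited. The interleukin-6 family ligands Il11 (1.03 and 12.8 FPKM) and Lif (2.46 and 20.4) were higher, while 4 of the 5 receptor subunits of that family were 2-fold lower (median -1.45), their sum being 392 FPKM in the PBS library and 143 in that labelled DEX. Tnfrsf12a, the receptor of TWEAK, stood at 12.4 FPKM with PBS, 147 FPKM in the library labelled DEX and 13.9 FPKM in the other DEX column. Il1rl1, the receptor of interleukin-33, stood at 0.265 and 10.4 FPKM, and the osteoclast factor Tnfsf11 at 10.7 and 0.941. CD137 itself, encoded by Tnfrsf9, had 4.14 FPKM under PBS and 1.62 FPKM in that labelled DEX. Among 25 chemokine genes 5 were higher and 8 lower, or 8 and 7 as deposited, with a median of -0.09 that turned to 0.16. Cxcl12, which holds progenitors and leukocytes in tissue, stood at 350 FPKM with PBS, 48.8 FPKM in the library labelled DEX and 480 FPKM in the other DEX column. Ccl2, which draws monocytes, stood at 31.6, 203 and 49.9 FPKM, and the platelet basic protein Ppbp at 0.479, 11.3 and 0.701. The higher and the lower chemokines alike had the library labelled DEX as the odd column. The interferon-induced Cxcl10 (0.495 and 4.57 FPKM) was the 1 member of any list or family that passed 2-fold with the other DEX column too, at 2.52 FPKM there. In the prostaglandin list 7 of 25 were higher and 4 lower, or 9 and 2 as deposited, including the cyclooxygenase Ptgs1 (20.7 and 66.5 FPKM) and the reductase Akr1b3 (20.7 and 98.8).

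Genes of cell division were higher almost throughout. Entry into mitosis is driven by cyclin-dependent kinase with B cyclins and ended by the anaphase-promoting complex. Of 42 mitosis genes 35 were 2-fold higher and 0 lower (median 1.47), and 41 lay above 0. Cdc20, the activator of that complex, stood at 2.94 FPKM with PBS, 23.9 FPKM in the library labelled DEX and 2.66 FPKM in the other DEX column, a difference of 2.41. Ube2c, the ubiquitin-conjugating enzyme of the same complex, stood at 5.19, 36.5 and 5.77 FPKM. The guanine exchange factor of cell cleavage Ect2 stood at 2.15, 16.1 and 2.38 FPKM. All 3 were high in the library labelled DEX alone of the PDGFRα+ columns. Nuf2 (1.37 and 11.4 FPKM), a kinetochore protein, and Foxm1 (1.55 and 11.1), a transcription factor of the G2 phase, followed, and Kif23 (2.03 and 9.02), a cleavage motor, stood nearest to the median.

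DNA replication genes came next, with 28 of 52 higher and 0 lower (median 1.09). All 6 subunits of the MCM2 to MCM7 helicase were 2-fold higher, their sum being 25.5 FPKM in the PBS library and 110.0 in that labelled DEX. Mcm5 stood at 1.59 FPKM with PBS, 14.1 FPKM in the library labelled DEX and 1.73 FPKM in the other DEX column, and Mcm3 at 3.12, 21.4 and 4.07. Fen1, which trims Okazaki fragments, stood at 1.08, 11.1 and 1.57 FPKM. The replicative polymerase Pole stood at 0.684 and 5.97 FPKM, while of 7 polymerase and primase subunits 2 passed 2-fold and all 7 lay above 0. DNA repair genes had 6 of 33 higher and 0 lower (median 0.51). Core histone genes had 11 of 18 higher and 0 lower (median 1.11). Histone genes are near-identical and their replication-dependent mRNAs mostly lack poly(A), so the values of Hist1h4i (0.800 and 7.68 FPKM) and others are uncertain. Tubulins were higher at 11 of 15 genes (median 1.26), such as Tubb2b (10.7 and 70.4 FPKM) and Tubb6 (58.7 and 209), and kinesins at 9 of 31, with the axonal motor Kif1a (9.90 and 51.4) above the mitotic Kif20a (2.85 and 16.8). With the other DEX column 0 of 39 mitosis and 0 of 45 replication genes passed 2-fold, and the medians were -0.11 and 0.04.

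Regulators of the cell cycle outside these lists stood on both sides. Of 30 cyclins, inhibitors and p53 pathway genes 6 were higher and 4 lower, or 8 and 3 as deposited. The G1 cyclin Ccnd1 stood at 9.07 and 43.4 FPKM and the inhibitor Cdkn1b at 47.6 and 17.1, while the p53 gene Trp53 (17.9 and 58.4) and its antagonist Mdm2 (34.3 and 98.8) were both higher.

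Promoters of the division genes carry short elements that textbooks assign to cell cycle control, and 3 of them are shown because the mitosis and replication lists had the most members past 2-fold on the higher side, with a TEAD target for contrast. Windows of 300 bases, from 250 before to 50 after the start site, were taken from RefSeq (GRCm38.p6) and read 5′ to 3′ on the gene's strand. Windows were found for 9720 of 13174 measured gene symbols. Capitals mark TTTGAA, the cell cycle homology region, and CCAAT in Cdc20 (chr4:118437294-118437593, minus strand) and Ube2c (chr2:164769679-164769978, plus strand). In Mcm5 (chr8:75109259-75109558, plus strand) capitals mark the E2F form TTTGGCGC, which lies on the reverse strand. In Ankrd1 (chr19:36119795-36120094, minus strand) they mark the TEAD motif CATTCC, likewise on the reverse strand, where it reads GGAATG. Motifs not named for a gene are left in lower case. Ube2c also holds CATTCC, Mcm5 holds CCAAT boxes, and Ankrd1 holds CCAAT on the reverse strand.
Cdc20: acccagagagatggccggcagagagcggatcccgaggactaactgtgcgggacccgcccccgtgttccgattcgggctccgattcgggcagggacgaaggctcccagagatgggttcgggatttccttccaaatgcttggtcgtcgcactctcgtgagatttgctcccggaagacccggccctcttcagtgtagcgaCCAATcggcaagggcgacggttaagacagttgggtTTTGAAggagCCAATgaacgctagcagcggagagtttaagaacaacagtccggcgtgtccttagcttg
Ube2c: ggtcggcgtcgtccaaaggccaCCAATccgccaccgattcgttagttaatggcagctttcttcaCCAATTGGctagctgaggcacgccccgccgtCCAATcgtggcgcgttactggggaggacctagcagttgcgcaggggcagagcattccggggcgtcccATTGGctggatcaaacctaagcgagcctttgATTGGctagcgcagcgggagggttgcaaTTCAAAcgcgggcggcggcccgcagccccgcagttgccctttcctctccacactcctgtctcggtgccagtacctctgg
Mcm5: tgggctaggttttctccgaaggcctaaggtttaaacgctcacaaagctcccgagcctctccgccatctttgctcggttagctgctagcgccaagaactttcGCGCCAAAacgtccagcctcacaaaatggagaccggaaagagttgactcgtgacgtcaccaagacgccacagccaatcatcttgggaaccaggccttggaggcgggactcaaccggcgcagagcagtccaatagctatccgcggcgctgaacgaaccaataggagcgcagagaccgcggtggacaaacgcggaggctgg
Ankrd1: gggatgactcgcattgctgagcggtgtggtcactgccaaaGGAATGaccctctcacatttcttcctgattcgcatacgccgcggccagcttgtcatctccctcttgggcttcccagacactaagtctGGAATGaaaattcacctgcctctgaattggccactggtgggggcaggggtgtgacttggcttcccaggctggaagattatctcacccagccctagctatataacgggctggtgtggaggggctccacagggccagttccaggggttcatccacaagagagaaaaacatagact

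In Cdc20 the TTTGAA began 18 bases before the start site with CCAAT boxes beginning at -53 and -8, and in Ube2c it lay on the reverse strand at -29. TTTGAA on either strand was found in 26 of 35 mitosis windows (74.3%), in 14.3% of the windows of measured genes and in 20.2% of 27025 genes with a window. The CCAAT box, which NF-Y binds, was in 77.1% of mitosis and 90.5% of cholesterol windows (19 of 21), beside 43.1% of measured and 41.1% of all genes. An E2F motif in either form, TTTCCCGC or TTTGGCGC, was in 12 of 42 replication windows (28.6%), beside 3.44% of measured and 1.80% of all genes. CATTCC was in 8 of 18 windows of YAP and TEAD targets (44.4%), beside 14.7% and 16.6%. The glucocorticoid receptor motif TGTTCT was in 4 of 27 windows of glucocorticoid-induced genes (14.8%), beside 14.4% and 21.3%. The sterol element TCACNCCAC was in 1 of 21 cholesterol windows (4.76%), beside 1.36% and 1.44%. None of these motifs overlaps another in the windows shown, apart from CCAAT boxes that share bases on opposite strands in Ube2c. Over all genes that were 2-fold higher the shares were 17.5% for TTTGAA and 5.11% for the E2F forms, beside the 14.3% and 3.44% of measured genes. A match describes letters in a window and not a bound site.

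**Figure D2:**
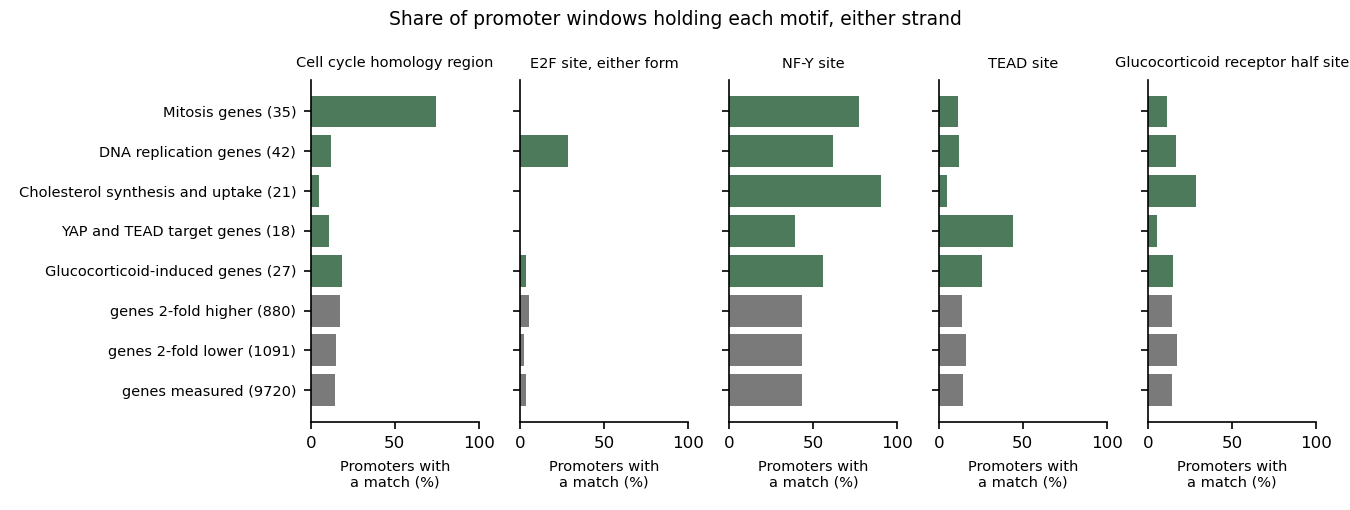
Bars give the percentage of promoter windows that hold a motif on either strand, for 5 lists (green) and for genes 2-fold higher, 2-fold lower and measured (grey). The number of windows stands beside each set. TTTGAA reaches 74.3% in mitosis genes against 14.3% of measured genes, and the E2F forms 28.6% in replication genes against 3.44%.

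Genes that build ribosomes and the proteins of the ribosome itself lay on opposite sides. Nucleolar ribosome biogenesis genes had 16 of 38 higher and 0 lower (median 0.90), with the box C/D protein Nop56 at 19.7 FPKM with PBS, 72.3 FPKM in the library labelled DEX and 22.2 FPKM in the other DEX column. The processing factor Rrp12 stood at 0.948, 6.37 and 1.5 FPKM, and the helicase Ddx21 at 9.49, 34.4 and 9.46. These were high in the library labelled DEX alone of the PDGFRα+ columns. Cytosolic ribosomal protein genes had 0 higher and 38 of 86 lower (median -0.96), and their share of summed FPKM was 13.7% under PBS and 8.57% in the library labelled DEX. That count rests on the scaling: as deposited the median was -0.71 and 1 gene was 2-fold lower. Rps27 stood at 798 FPKM with PBS, 366 FPKM in the library labelled DEX and 791 FPKM in the other DEX column, and Rpl21, nearest to the median, at 421, 258 and 445. Ribosomal protein genes have many processed copies in the genome, so single values are uncertain. Mitochondrial ribosomal proteins had 4 of 78 higher and 0 lower (median 0.32).

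Splicing factors and proteasome subunits also had most members above 0. Of 33 splicing genes 32 lay above 0 (median 0.69) but 5 passed 2-fold, or 15 as deposited, with Sf3b4 (7.64 and 36.5 FPKM) and the SR protein Srsf3 (32.5 and 93.7) the highest. Of 37 proteasome genes 35 lay above 0 (median 0.58). On that scale 4 passed 2-fold (10.8%), near the 9.23% of all genes, or 13 as deposited. Chaperones were higher at 4 of 25 genes and lower at 1: the mitochondrial chaperonin Hspd1 stood at 56.4 and 186 FPKM and Cct3 of the cytosolic chaperonin at 41.1 and 134, against the small heat shock protein Hspb1 at 633 and 249.

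All 13 subunits encoded in mitochondrial DNA lay above 0 and 9 were 2-fold higher (median 1.21), so their share of summed FPKM was 3.45% under PBS and 7.66% in the library labelled DEX. Cytochrome b, mt-Cytb, stood at 727 FPKM with PBS, 3022 FPKM in the library labelled DEX and 874 FPKM in the other DEX column. The complex I subunit genes mt-Nd1 (937, 3204 and 1112 FPKM) and mt-Nd3 (164, 644 and 181) had the same order of columns. The counting is not stated to use strand, so mt-Nd6, which lies on the other strand, and the overlapping mt-Atp8 are uncertain. Nuclear-encoded subunits of the same complexes had 5 of 58 higher, close to the 9.23% of all genes, with a median of 0.31.

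**Figure D3:**
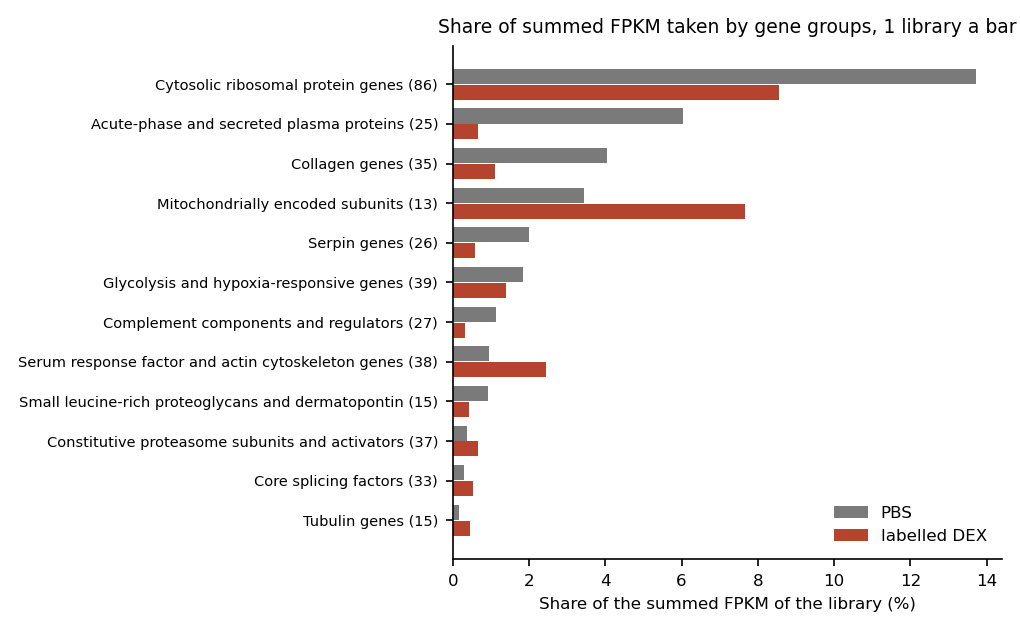
Bars give the percentage of summed FPKM taken by 12 gene groups, with the number of listed genes, in the PBS library (grey) and the library labelled DEX (red), 1 library a bar. Ribosomal proteins (13.7% and 8.57%), acute-phase genes (6.03% and 0.668%) and collagens (4.04% and 1.10%) take less in the library labelled DEX, and mitochondrially encoded subunits more (3.45% and 7.66%).

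Glycolytic and hypoxia-responsive genes were lower, with 18 of 39 past 2-fold and 0 higher (median -0.98). Of 13 hypoxia-responsive genes of the list 12 were 2-fold lower (median -2.26). Of 17 glycolytic enzymes 4 were (median -0.62), or 2 as deposited. These sets were chosen after values were seen, and the contrast between them was not tested. Adm, the vasodilator adrenomedullin, stood at 129 FPKM with PBS, 13.8 FPKM in the library labelled DEX and 139 FPKM in the other DEX column. The oxygen-sensing hydroxylase Egln3 stood at 51.4, 7.29 and 50.6 FPKM, and Epas1, the gene of a hypoxia-inducible factor, at 31.5, 4.51 and 33.4. Carbonic anhydrase Car9 (8.08 and 0.767 FPKM) and Ndrg1 (74.4 and 15.3), both hypoxia markers, were lower too, as was the pyruvate dehydrogenase kinase Pdk1 (51.9 and 12.1). With the other column 0 of 39 passed 2-fold (median -0.07).

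Cytochrome P450 genes, which oxidise drugs, steroids and lipids, had 10 of 21 lower and 1 higher (median -0.89), or 8 and 2 as deposited, with Cyp2e1 at 16.6 and 0.153 FPKM and Cyp2d22 at 37.3 and 2.92. Aldehyde dehydrogenases had 6 of 17 lower and 0 higher (median -0.54), led by Aldh6a1 (33.1 and 5.52 FPKM) of valine breakdown. Among 20 retinoid genes 6 were lower and 2 higher, or 6 and 4 as deposited: the retinol oxidiser Adh1 stood at 56.8 and 2.81 FPKM, while the retinol importer Stra6 (1.17 and 15.8) and the dehydrogenase Rdh10 (5.11 and 23.2) were higher. Thyroid hormone receptor Thra stood at 41.3 and 10.9 FPKM. The antioxidant list had 8 higher and 9 lower of 39, or 9 and 6 as deposited, between Txnip, a thioredoxin inhibitor that responds to glucose (372 and 25.8 FPKM), and the quinone reductase Nqo1 (4.47 and 25.2). In insulin signalling 8 of 35 were lower and 1 higher, or 5 and 4 as deposited, including the receptor Insr (15.4 and 6.41 FPKM), and of 19 IGF axis genes 5 were lower and 2 higher, or 4 and 3 as deposited, with the binding proteins Igfbp4 (247 and 25.7) and Igfbp6 (381 and 69.3) lowest. Metallothionein Mt2, a metal-binding protein also induced by glucocorticoids, stood at 4637 and 1497 FPKM, and the transferrin receptor Tfrc at 4.48 and 38.5.

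Actin cytoskeleton genes, many of them targets of serum response factor, were higher. Of 38 genes 17 were 2-fold higher and 0 lower (median 0.96), and they took 0.959% of summed FPKM under PBS and 2.46% in the library labelled DEX. Gamma actin Actg1 stood at 335 FPKM with PBS, 1548 FPKM in the library labelled DEX and 336 FPKM in the other DEX column. Tropomyosin Tpm1 stood at 245, 841 and 249 FPKM and the actin-severing cofilin Cfl1 at 210, 681 and 233. Each was high in the library labelled DEX alone of the PDGFRα+ columns. Zyxin, Zyx, an adhesion protein, stood at 57.1 and 176 FPKM. Smooth muscle and mural genes did not follow as a group, with 5 of 22 higher and 2 lower, or 6 and 1 as deposited, and a median of -0.04 that turned to 0.21. Among them Actg2 stood at 108 and 299 FPKM and Ndufa4l2, a mural and hypoxia gene, at 227 and 16.3.

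The Hippo pathway restrains YAP and TAZ, which act through TEAD factors. The factors themselves differed little: 0 of 6 (Tead1 to Tead4, Yap1 and the TAZ gene Wwtr1) passed 2-fold, and Tead1 stood at 45.3 FPKM with PBS, 61.1 FPKM in the library labelled DEX and 40.9 FPKM in the other DEX column. Among 31 pathway genes 3 were higher and 1 lower (median 0.27), or 6 and 0 as deposited. The 3 are 9.68%, near the 9.23% of all genes. Those higher were the junction scaffolds Amot (3.65 and 32.3 FPKM) and Wwc1 (1.5 and 13.1) and the protocadherin Fat1 (16 and 44.5). Amotl2 (119 and 65.6) was lower. Of 28 targets 9 were higher and 2 lower, but with a median of -0.06 that turned to 0.19 as deposited. Ankrd1 stood at 5.47 FPKM with PBS, 51.6 FPKM in the library labelled DEX and 6.99 FPKM in the other DEX column. The adhesion protein Ajuba (4.82 and 23.1 FPKM) and the kinase Nuak2 (6.51 and 23.7) were higher as well, and the survivin gene Birc5 (3.88 and 20.6) is also a mitosis gene. These named targets are all from the higher side and do not stand for the list. Of its 28 members 14 lay above 0 and 14 below, with differences from -2.77 to 2.77.

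Among signalling genes the ligands of receptor tyrosine kinases stood on both sides. All 5 measured EGF family ligands lay above 0 and 3 were 2-fold higher, the sum being 6.23 FPKM in the PBS library and 45.8 in that labelled DEX, with Ereg at 2.74 and 25.5 FPKM and Hbegf at 2.12 and 13.4. PDGF ligand Pdgfb stood at 2.39 FPKM with PBS, 26.7 FPKM in the library labelled DEX and 1.68 FPKM in the other DEX column, while the receptor Pdgfra, the sorting marker, stood at 136.7, 57.9 and 146. Ligand and receptor thus stood on opposite sides of PBS in the library labelled DEX. The vessel factors Angpt2 and Pgf stood at 8.03 and 1.48 FPKM and at 31.8 and 8.64. Over the 34 growth factors 7 were higher and 9 lower. Receptors included Ntrk2 (7.42 and 0.269 FPKM) and the VEGF receptor Flt1 (25.5 and 6.60) on the lower and the stem cell factor receptor Kit (1.47 and 9.83) on the higher side.

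Feedback genes of the MAP kinase pathway were higher at 8 of 27 and lower at 1 (median 0.50), as in the phosphatases Dusp4 (8.69 and 38.2 FPKM) and Dusp5 (1.87 and 10.1), and Phlda1 (2.82 and 20.7). TGFβ pathway genes had 8 of 32 higher and 3 lower (median 0.35): activin A, Inhba, stood at 17.1 and 107 FPKM and the feedback inhibitor Pmepa1 at 8.98 and 49.7, against the activin receptor Acvr1b at 31.4 and 8.15. BMP antagonists opposed each other, Chrdl1 (29.0 and 2.38 FPKM) and Chrd (18.8 and 2.25) being lower where Grem1 was higher. In the Wnt list of 34 genes 6 were higher and 5 lower, or 7 and 3 as deposited. The secreted Wnt inhibitors Sfrp1 (502 and 71.1 FPKM) and Sfrp2 (13.3 and 2.81) were lower, and the ligands Wnt7b (1.31 and 16.3) and Wnt5a (5.35 and 28.2) higher. Hes1, a Notch target, stood at 1.68 and 22.6 FPKM. None of these signalling lists had a member past 2-fold with the other DEX column. Over all 97 lists and families only the chemokines had such a member, and the medians of the 87 with 10 or more measured genes lay between -0.18 and 0.28 with that column, against -2.47 to 1.83 in the library labelled DEX.

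**Figure D4:**
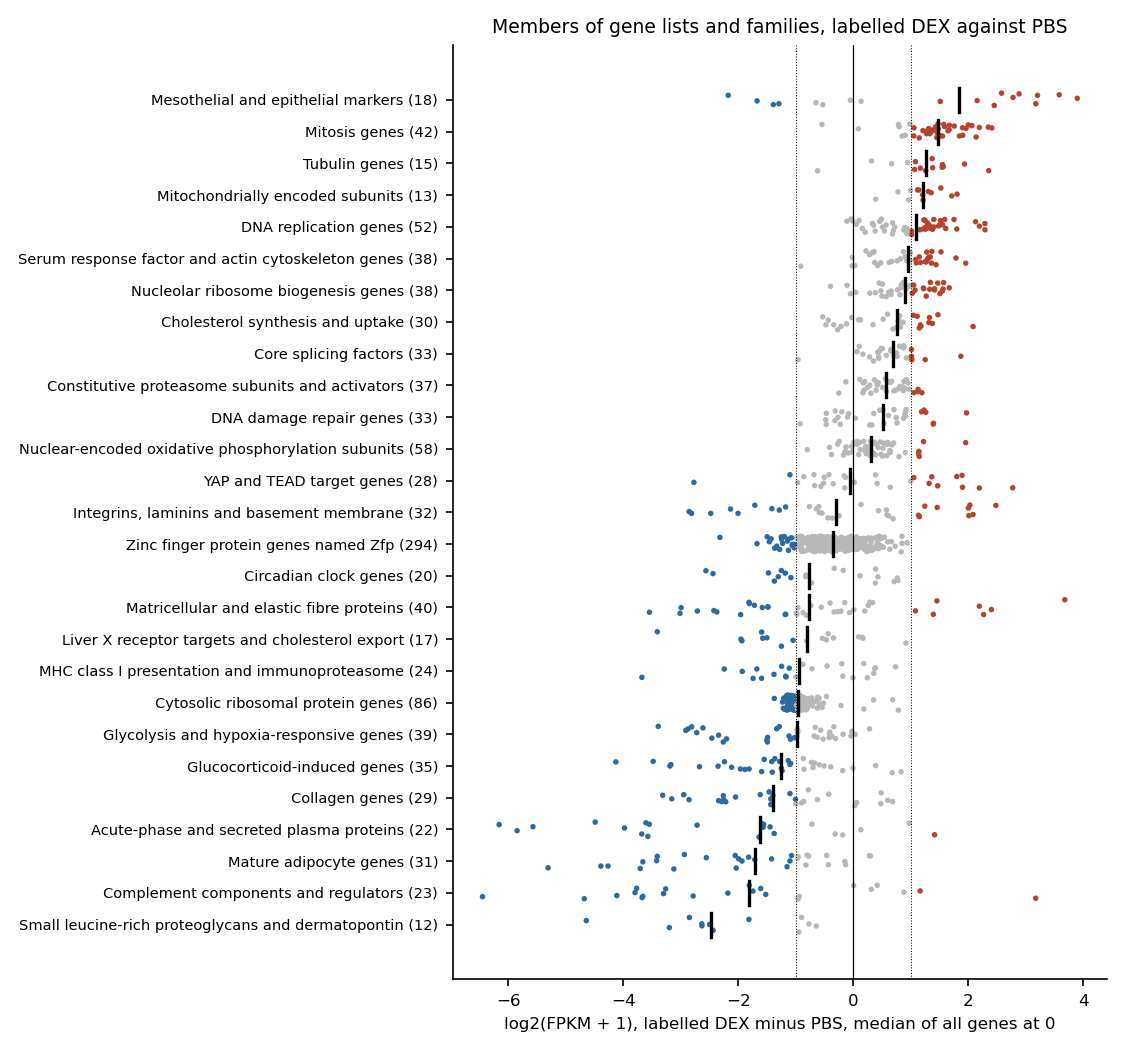
Each point is a member of a gene list or family, with the number of measured members, at its difference in log2(FPKM + 1) between the library labelled DEX and PBS after the median of all genes was set to 0. Black bars are list medians and dotted lines mark 2-fold. Medians run from 1.83 for mesothelial and epithelial markers and 1.47 for mitosis genes to -2.47 for small leucine-rich proteoglycans.

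Markers of other cell types were examined for the same columns. The mesothelial and epithelial list had 10 of 18 higher and 4 lower (median 1.83). It was divided into epithelial and mesothelial genes after values were seen. The counts of these parts therefore describe the division, and a separation by tissue was not tested. All 10 epithelial keratin and junction genes were 2-fold higher, their sum being 80.6 FPKM in the PBS library and 817 in that labelled DEX. Of the 8 mesothelial genes 4 were 2-fold lower and 0 higher, their sum being 81.0 and 38.6 FPKM. The claudin Cldn3 stood at 2.22 FPKM with PBS, 34.2 FPKM in the library labelled DEX and 2.06 FPKM in the other DEX column, the adhesion molecule Epcam at 4.64, 45.0 and 4.33, and the desmosome gene Dsp at 0.847, 8.77 and 0.694. These genes were high in the library labelled DEX alone of the PDGFRα+ columns. All 9 measured keratins were 2-fold higher (median 2.45), with Krt17 of stratified and stressed epithelia at 2.94 and 46.4 FPKM and Krt14 of basal cells at 4.23 and 28.1. Cadherins had 7 of 10 higher and 0 lower, such as Cdh6 (3.46 and 20.3 FPKM), and claudins 5 of 15 higher and 4 lower, or 7 and 3 as deposited, with the myelin and stromal Cldn11 (26.0 and 1.98) on the lower side. Endothelial markers had 7 of 12 lower and 1 higher (median -1.03), or 4 and 1 as deposited, at low levels such as Pecam1 (3.30 and 0.672 FPKM). Of 19 macrophage markers 4 were measured, with 1 higher, 0 lower and a median of 0.09: Cd68 stood at 1.36 and 5.44 FPKM and the macrophage receptor Csf1r at 1.37 and 0.897. Of 13 lymphocyte markers 1 was measured, and of 8 red blood cell markers 0. The part of epithelial or other cells in the results above was not tested.

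The near match with the CD137+ DEX column of the between-type table makes it possible to say which groups set the libraries apart. Between these columns, set across tables with the median at 0, 672 genes were 2-fold higher in the library labelled PDGFRα+ DEX and 188 lower among 12648. No member passed 2-fold in the lists of mitosis (42 genes), replication (52), ribosomal proteins (86), ribosome biogenesis (38), cholesterol synthesis (30) or mitochondrially encoded genes (13). Where they parted, the leading list was that of mesothelial and epithelial markers, with 16 of 17 higher (median 2.63), followed by keratins (9 of 10) and smooth muscle and mural genes (14 of 21, median 1.39). Cadherins were higher at 5 of 10 and lower at 1, and claudins higher at 5 of 10 and lower at 0. Acute-phase genes were higher at 9 of 20 and lower at 2, and complement genes higher at 7 of 19 and lower at 0. Interferon-responsive genes were higher at 15 of 42 and basement membrane and adhesion genes at 14 of 32, while immediate early genes were lower at 9 of 26. Cldn4 stood at 145 FPKM in the library labelled PDGFRα+ DEX and 5.32 in the CD137+ column, and Sfn at 42.5 and 1.95, close to the 7.26 and 2.0 of PDGFRα+ PBS. Cck (768 and 195 FPKM), Spp1 (2151 and 1171) and Mcm5 (14.1 and 19.1) were high in both, and C7 (0.235 and 0.0308) was low in both.

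**Figure D5:**
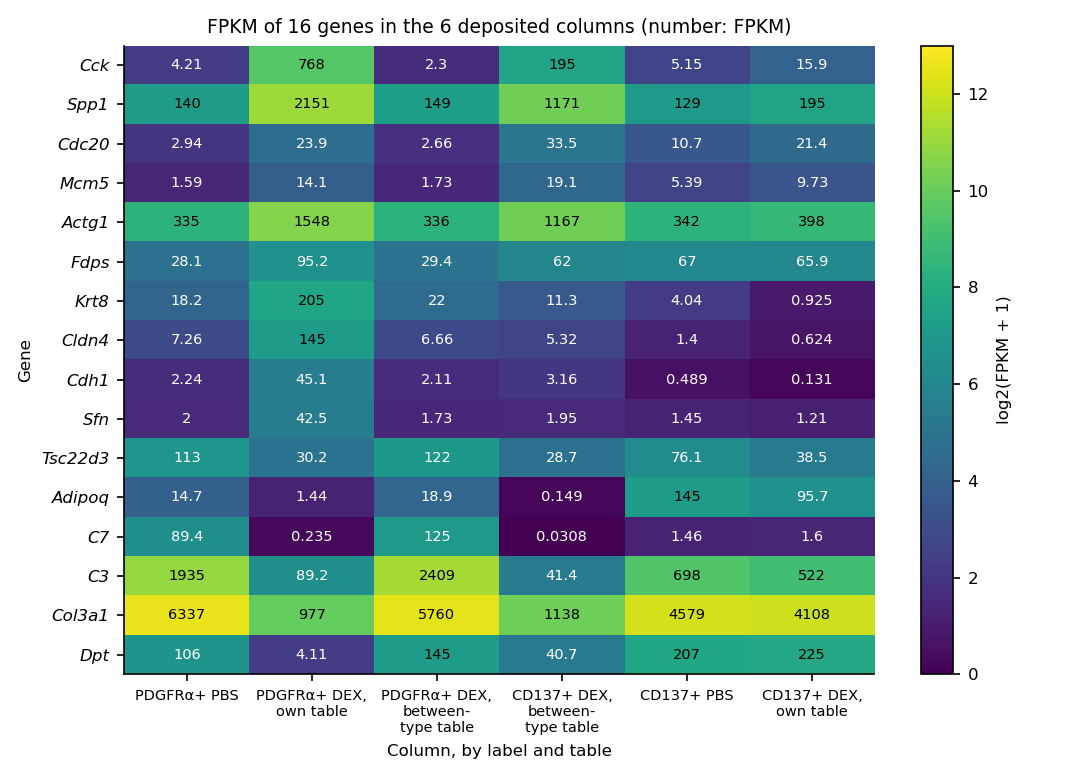
Colours and printed numbers give the FPKM of 16 genes in the 6 deposited columns, which come from 3 tables. The PDGFRα+ DEX column of its own table pairs with the CD137+ DEX column of the between-type table for Cck, Spp1, Actg1, Col3a1 and C7, and stands alone for Krt8, Cldn4, Cdh1 and Sfn. The other PDGFRα+ DEX column pairs with PDGFRα+ PBS.

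Identity genes of progenitors and of body position were examined last. Of 31 progenitor surface and identity genes 12 were lower and 2 higher (median -0.52), or 11 and 4 as deposited, with Fmo2, a flavin monooxygenase of adipose fibroblasts, at 126 and 5.82 FPKM. Developmental regulators split, the fibroblast factors Osr1 (46.6 and 4.77 FPKM) and Tcf21 (57.6 and 15) being lower and the tendon factor Scx (0.293 and 5.31) and Sox11 (0.624 and 6.93) higher. Hox genes, which record position along the body axis, stayed within 2-fold at 23 of 26. The 3 exceptions were Hoxb9 (1.92 FPKM with PBS, 19.5 FPKM in the library labelled DEX and 1.72 FPKM in the other DEX column), Hoxb8 (2.19, 12.4 and 2.30) and Hoxb6 (3.97, 14.4 and 3.97). They are 11.5% of the list, near the 9.23% of all genes. As deposited 6 Hox genes were 2-fold higher and 0 lower, 5 of them Hoxb genes and 1 a Hoxc gene. All 8 measured Hoxb genes lay above 0 (median 0.87), whereas the medians of the Hoxa, Hoxc and Hoxd genes were -0.02, 0.17 and 0.10, the Hoxa value turning to 0.23 as deposited. Of 4 Y-linked genes 0 passed 2-fold, and all 4 were present in both libraries. Imprinted H19 stood at 159 and 13.9 FPKM, and Peg10 at 0.610 and 7.81.

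Differences were not spread evenly over the transcriptome. Of genes whose higher value was 100 FPKM or more 16.4% were 2-fold higher and 24.7% lower, against 6.29% and 12.0% of those at 1 to 5 FPKM. Over 4 equal bins of annotated transcript length, the shortest (204 to 2235 bases) had 11.6% higher and 13.4% lower, and the longest 7.2% and 9.73%. Noncoding and pseudogene classes had medians below 0, with -0.32 over 140 antisense genes, -0.27 over 134 lincRNAs and -0.32 over 233 processed pseudogenes, beside 0.02 over 12326 protein-coding genes. These medians and those of chromosomes below were taken after the typical shift of 0.25 was removed. Their sizes, the shares by level and length and the sign of any median less than 0.25 below 0 rest on that scaling. Such medians include those of chromosome 7, processed transcripts (-0.20) and unprocessed pseudogenes (-0.14). Antisense and pseudogene values share reads with other genes and are uncertain. The 294 measured zinc finger protein genes named Zfp had 21 lower and 0 higher (median -0.35), below the 11.8% of all genes 2-fold lower. As deposited 9 of them were lower and 4 higher, with a median of -0.10. Medians of the autosomes and the X chromosome ran from -0.12 on chromosome 7 to 0.09 on chromosome 11, beside -0.34 over 10 genes of the Y chromosome and 1.14 over 15 of the mitochondrial genome. The 10 highest genes took 13.9% of summed FPKM under PBS and 8.94% in the library labelled DEX.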

How the data were processed

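Sorted adipose progenitors of 4 samples, 1 a group, were sequenced. RNA was isolated with Trizol and sequenced from libraries of a TruSeq RNA kit (Illumina), as the labels' protocols say. The authors deposited FPKM values in 3 tables of 2 columns each, made with Cufflinks and Cuffdiff on mm10 per the submitters' processing notes. Their versions, the aligner, the annotation and the strand setting were not stated, and columns of the same label differ between tables. The deposited ratios, p-values and q-values were not used. FPKM depends on the composition of a library, so a few very high genes can shift all others.

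Differences were computed with Python 3.11.15, numpy 2.4.6 and pandas 2.3.3 as log2(FPKM + 1), for genes at 1 FPKM or more in the higher column, with the median set to 0. Coordinates are those of the files, on mm10 and counted from 1. Biotypes and lengths came from GENCODE M21 and promoters from RefSeq. Figures were drawn with matplotlib 3.10.9. The scripts were tested on simulated data. Named genes are 11 listed genes fixed by name, the 15 highest and 15 lowest at 5 FPKM or more, and members of lists. Ucp1 was also fixed by name and is not described. From a list up to 6 of the largest differences were named, and for some lists the member nearest to the median. Members and lists were chosen with earlier results of these data known, and role sets within lists after values were seen. Alternatives were other pseudocounts, minimums, folds and scalings, and the other DEX column.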

Additional observations from a re-analysis of the deposited data

How the results depend on the processing

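With 1 library a side no replicate could be left out and no difference was tested, and depth is unknown. No paired analysis was possible because each group holds 1 sample. Against 1217 genes higher and 1561 lower, the counts were 567 and 651 with a pseudocount of 5, 623 and 985 with a minimum of 10 FPKM, 2049 and 1016 as deposited, 2733 and 3025 at 1.5-fold, and 184 and 345 at 4-fold. A pseudocount of 0.1, no minimum, equal upper quartiles and division by the median ratio (added after seeing the data) kept both counts within 1.5 times.

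With the other PDGFRα+ DEX column in place of the one compared, the counts were 7 and 14. With it 37 of 95 list and family medians lay on the other side of 0. Among lists with a median at least 0.5 from 0 these were adipogenic factors (0.011), adipocyte genes (0.18), lipid droplet genes (0.12), mitosis (-0.11), DNA repair (-0.084), actin genes (-0.0041), small proteoglycans (0.28), complement (0.18), acute-phase genes (0.18), MHC class I (0.052), progenitor genes (0.064), senescence-linked secretory genes (-0.072), retinoid genes (0.0035), Schwann cell markers (-0.075) and brown fat markers (0.013). Cck stood at -0.69 there, C7 at 0.45 and Cdc20 at -0.14. With a minimum of 10 FPKM the Schwann cell median was -2.72. That minimum also moved 8 other medians, among them complement (-3.37), acute-phase genes (-3.68), endothelial markers (-0.29), and chemokines (0.60) and smooth muscle genes (0.51), which turned. A pseudocount of 5 moved 7, among them adipocyte genes (-0.85), mitosis (0.94), replication (0.55) and small proteoglycans (-1.39). Why the columns with this label differ was not tested.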
